A study of Danio rerio with 12 samples.

Results

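The core target genes of the glucocorticoid receptor described here are fkbp5, hsd11b2, tsc22d3, sgk1, dusp1, anxa1a, anxa1b and zbtb16a. They are genes that glucocorticoids are known to raise in fish or mammalian cells, and they were chosen with earlier results of these data known. A probe belongs to the set where the RefSeq accession in the scanner files maps to 1 of these symbols. This gave 18 probes for the 8 genes, of 43603 probes and 12858 named genes on the array. Of the genes, 3 have 3 probes, 4 have 2 probes and 1, anxa1b, has 1 probe. All 18 probes were bright enough to be tested, and 10 were well above background on all 12 arrays.

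Whole zebrafish embryos of the AB wild-type strain were measured at 24 or 72 hours post fertilisation (hpf), after 3 h in 25 µM beclomethasone or in 0.1% DMSO. The 4 groups, of 3 arrays each, are beclomethasone at 24 hpf, DMSO at 24 hpf, beclomethasone at 72 hpf and DMSO at 72 hpf. Each array is 1 sample in 1 colour, and the labels do not say whether the replicates came from separate clutches, so p-values measure only the spread between these samples. RNA of the whole body was measured, so fewer cells of a type and less RNA per cell cannot be told apart.

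Beclomethasone is a synthetic glucocorticoid. The glucocorticoid receptor waits in the cytoplasm in a complex with Hsp90 chaperones. When it binds a hormone it enters the nucleus and raises or lowers the transcription of genes whose regulatory DNA it reaches. Among its best known targets are brakes on the receptor itself (fkbp5), an enzyme that inactivates cortisol (hsd11b2), genes that carry its anti-inflammatory effects (tsc22d3, dusp1 and the annexins), a kinase of salt transport (sgk1) and a transcription factor (zbtb16a). In fish, cortisol also takes part in the salt balance of the skin, where ionocytes move ions.

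Treatment directions follow how the scanner arrays are labelled. In the authors' deposited table the labels are the other way round: each of the 12 columns was closest to a scanner array that shared its stage and replicate number but had the other treatment (r between 0.988 and 0.997 across 13879 probes, and 0.658 to 0.827 for the array labelled alike). Taken with that table's labels, the treatment difference of each gene's brightest probe has the opposite sign at both stages. Which labels are right was not tested. Array 3 of DMSO at 24 hpf stands apart. It had 16764 spots well above background, against 31210 to 37401 on the other 11 arrays, and its lowest signal well above background was 215 scanner units, against 11.8 to 19.5. Several dim probes read far higher on it than on the other DMSO arrays of 24 hpf. Results without it are given below for fkbp5, for the third sgk1 probe and for some results of the other core genes, but not for genes outside this set. The arrays lay on 3 slides. Slide 1 held 1 beclomethasone and all 3 DMSO arrays of 24 hpf, slide 2 held 2 beclomethasone arrays of 24 hpf and 2 DMSO arrays of 72 hpf, and slide 3 held 1 DMSO and all 3 beclomethasone arrays of 72 hpf. A difference within slide 1 or slide 3 therefore has 1 array on 1 side, which is assumed to vary like the other arrays of the fit. Genes of muscle, red blood cells, epidermis and neurons were well above background in all 4 groups.

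The signals below are scaled so that the 75th percentile of each array is 1000, and differences are on the log2 scale with the standard error (SE) from the limma fit over all 12 arrays. At 24 hpf, 15 of the 18 probes rose with beclomethasone (limma adjusted p below 0.05), 0 fell and 3 were not called, against 12.2% of all 36058 tested probes that rose and 9.81% that fell, 22% in all. The median difference of the 18 probes was 0.87, against -0.09 over all tested probes. At 72 hpf, 15 probes again rose, 0 fell and 3 were not called, against 4.53% of all tested probes that rose and 4.72% that fell, 9.25% in all. Their median difference was 1.58, against -0.00 over all tested probes. At the brightest probe of each gene, 7 of 8 genes rose and 0 fell at 24 hpf, where 11.7% of named genes rose and 12.4% fell, 24.1% in all. At 72 hpf 7 of 8 rose and 0 fell, where 5.17% rose and 7.15% fell, 12.3% in all. The gene that did not pass was zbtb16a at 24 hpf, which was called as lower in some alternative fits given below, and anxa1b at 72 hpf. Because of how the genes were chosen, these counts are a description and not an independent test. The beclomethasone arrays lay above the DMSO arrays without overlap for 16 of the 18 probes at 24 hpf (19.3% of all tested probes) and for 17 at 72 hpf (16.7%), and below them for 1 probe at 24 hpf (20.7%) and 0 at 72 hpf (18.8%).

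**Figure D1:**
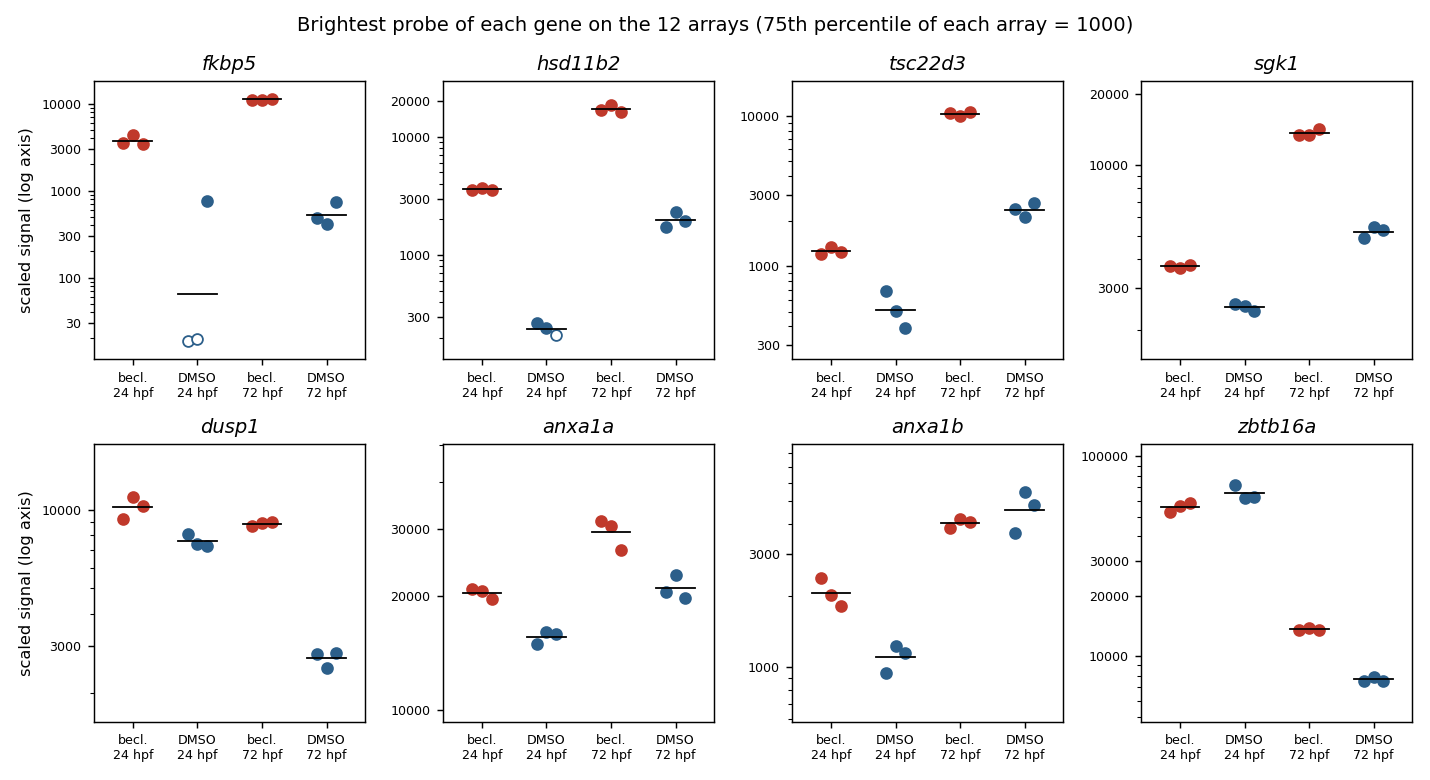
Scaled signal (log axis, 75th percentile of each array set to 1000) of the brightest probe of each gene on the 12 arrays, with beclomethasone in red and DMSO in blue. Each point is 1 array, open points were not well above background, and lines are group means of the log2 values. The beclomethasone points lie above the DMSO points at both stages except for zbtb16a at 24 hpf, where they lie below, and anxa1b at 72 hpf, where the groups overlap.

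**Figure D2:**
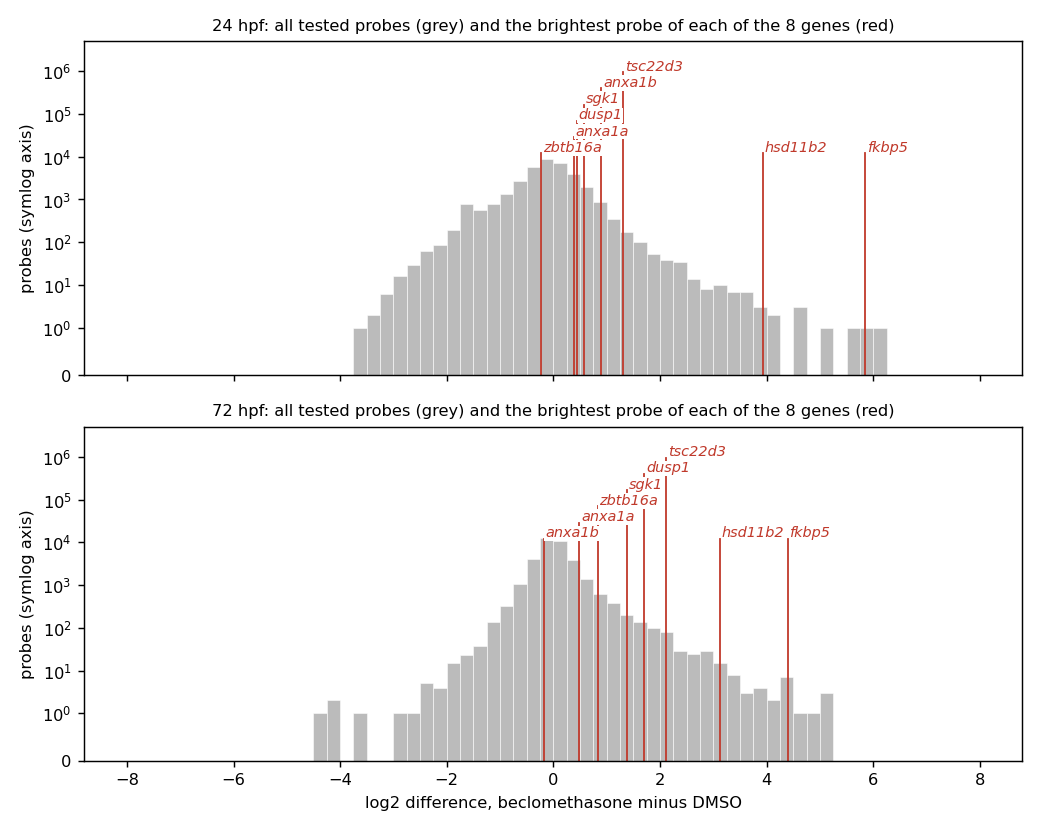
Number of probes (symlog axis) by log2 difference between beclomethasone and DMSO at 24 and 72 hpf, for all 36058 tested probes in grey, with the brightest probe of each gene as a red line. At 24 hpf fkbp5 (5.85) and hsd11b2 (3.93) stand in the far right tail and tsc22d3 (1.31) in the right tail, and the other lines lie between -0.23 and 0.90. At 72 hpf dusp1 (1.71) and sgk1 (1.39) stand in the right tail as well, with tsc22d3 at 2.12.

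The gene fkbp5 encodes an immunophilin that joins the receptor's chaperone complex and lowers its affinity for hormone, which makes it a feedback brake. Its brightest probe gave scaled signals of 3576, 4320 and 3415 in beclomethasone at 24 hpf, against 18.5, 19.4 and 756 in DMSO. The first pair of DMSO values was not well above background, and the 756 is array 3. Every beclomethasone array was above every DMSO array. The difference was 5.85 ± 1.17 (adjusted p = 0.00803). It was not called in a limma fit on only the 24 hpf arrays (adjusted p = 0.0841). Within slide 1 it was 5.79 and not called either. Without array 3 no DMSO array of 24 hpf was well above background, and beclomethasone was at least 159-fold higher (limma adjusted p = 1.84e-07). The second probe gave 848, 880 and 885 in beclomethasone, against 5.62, 5.17 and 70.5 in DMSO, where no array was well above background. This is a rise of at least 15.3-fold, with an adjusted p of 0.00155. Without array 3 this bound was 36.9-fold.

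Embryos of 72 hpf had fkbp5 above background in DMSO as well. The brightest probe gave 11046, 11170 and 11394 in beclomethasone, against 485, 414 and 747 in DMSO. The groups were far apart, with a difference of 4.40 ± 1.17 (adjusted p = 0.0458). That p shares its spread with the 24 hpf arrays. It was 1.76e-06 without DMSO array 3 of 24 hpf, 0.0910 with the replicate number as a block within each stage, and 0.470 for the difference of 3.91 within slide 3, where 1 DMSO array is set against 3 beclomethasone arrays. The second probe gave 2616, 2448 and 2451 in beclomethasone, against 122, 84.4 and 194 in DMSO, a difference of 4.31 ± 0.84 (adjusted p = 0.0106). The effect at 72 hpf minus that at 24 hpf was -1.46 ± 1.65 (adjusted p = 0.605) and -1.79 ± 1.18 (adjusted p = 0.370) and was not called. With normexp on the median signal it was 0.30 and 0.73, the opposite sign. Since the DMSO level at 24 hpf was mostly at background, the size of this stage difference is not known, and none is given without array 3.

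The gene hsd11b2 encodes 11-beta-hydroxysteroid dehydrogenase type 2, which turns cortisol into the inactive cortisone. Its brightest probe gave 3578, 3719 and 3518 in beclomethasone at 24 hpf, against 263, 239 and 210 in DMSO. Embryos of 72 hpf gave 17008, 18564 and 16395 in beclomethasone, against 1732, 2308 and 1922 in DMSO. The groups were well separated at both stages. The differences were 3.93 ± 0.12 (adjusted p = 2.16e-07) at 24 hpf and 3.13 ± 0.12 (adjusted p = 1.64e-06) at 72 hpf. The second probe gave almost the same sizes, 3.99 ± 0.11 and 3.12 ± 0.11. Within slide 1 and within slide 3 the differences of the brightest probe were 3.92 (adjusted p = 2.51e-04) and 3.17 (adjusted p = 6.13e-04).

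The rise of hsd11b2 on the log2 scale was smaller at 72 hpf, while its level was higher there in both treatments. The effect at 72 hpf minus that at 24 hpf was -0.80 ± 0.17 (adjusted p = 0.0220) at the brightest probe and -0.87 ± 0.16 (adjusted p = 0.0146) at the second. With the replicate number as a block within each stage these had adjusted p-values of 0.0443 and 0.0520. With slide as a block the adjusted p-values were 0.249 and 0.137, at sizes of -0.75 and -1.01. After normexp the sizes were -0.31 (adjusted p = 0.132) and -0.23 (adjusted p = 0.111).

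Among the genes of the anti-inflammatory arm, tsc22d3 encodes a leucine zipper protein, known in mammals as GILZ, that binds and restrains inflammatory transcription factors. Its brightest probe gave 1207, 1338 and 1254 in beclomethasone at 24 hpf, against 685, 502 and 387 in DMSO. The 72 hpf arrays gave 10418, 9965 and 10677 in beclomethasone, against 2422, 2121 and 2632 in DMSO. The groups did not overlap at either stage, and the level was higher at 72 hpf in both treatments. The differences were 1.31 ± 0.18 (adjusted p = 0.00138) at 24 hpf and 2.12 ± 0.18 (adjusted p = 7.66e-05) at 72 hpf. The other probes gave 1.51 ± 0.25 and 1.14 ± 0.32 at 24 hpf and 2.11 ± 0.25 and 2.24 ± 0.32 at 72 hpf, so all 3 probes rose at both stages. The third probe, the dimmest, was not called at 24 hpf with the replicate block within each stage (adjusted p = 0.0771). Within slide 1 and within slide 3 the brightest probe gave 1.24 and 1.98. The second probe gave 1.49 and 1.93 within those slides and the third 1.12 and 1.93, and neither was called there. The rise was larger at 72 hpf by 0.81 ± 0.25 at the brightest probe, which was not called (adjusted p = 0.0772). Without DMSO array 3 of 24 hpf it was 1.01 ± 0.18 (adjusted p = 0.0107).

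The gene dusp1 encodes a phosphatase that switches off MAP kinases. Its brightest probe gave 9242, 11170 and 10354 in beclomethasone at 24 hpf, against 8070, 7391 and 7261 in DMSO. The values at 72 hpf were 8635, 8893 and 8962 in beclomethasone, against 2815, 2476 and 2825 in DMSO. The level in beclomethasone was thus close at both stages, while DMSO embryos of 72 hpf had the lowest level of the 4 groups. The differences were 0.43 ± 0.09 (adjusted p = 0.00857) at 24 hpf and 1.71 ± 0.09 (adjusted p = 4.97e-06) at 72 hpf. The second probe gave 0.48 ± 0.09 and 1.78 ± 0.09. The effect was larger at 72 hpf by 1.27 ± 0.12 (adjusted p = 0.00113) and 1.30 ± 0.13 (adjusted p = 0.00137), and both were also called with slide as a block (adjusted p = 0.0345 and 0.0219). The small rise at 24 hpf was not called within slide 1, where it was 0.29 (adjusted p = 0.164) and 0.31 (adjusted p = 0.104).

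Annexin A1 is a calcium- and phospholipid-binding protein that, in mammals, curbs the recruitment of leukocytes after glucocorticoids. Zebrafish carry several copies of its gene, of which anxa1a and anxa1b belong to this set. The brightest probe of anxa1a gave 20822, 20680 and 19598 in beclomethasone at 24 hpf, against 14938, 16105 and 15926 in DMSO. In embryos of 72 hpf it gave 31473, 30614 and 26391 in beclomethasone, against 20544, 22712 and 19733 in DMSO. The shifts were small and without overlap, at 0.38 ± 0.09 (adjusted p = 0.0132) and 0.49 ± 0.09 (adjusted p = 0.00633), and within the slides they were 0.41 (adjusted p = 0.101) and 0.58 (adjusted p = 0.0705). The second probe of anxa1a, which is dimmer, gave 1623, 1690 and 1241 in beclomethasone at 24 hpf, against 489, 810 and 667 in DMSO. Its difference there was 1.23 ± 0.20 (adjusted p = 0.00309). At 72 hpf it was 0.56 ± 0.20 and not called (adjusted p = 0.125). The stage difference of anxa1a was 0.11 ± 0.12 (adjusted p = 0.597) at its brightest probe and -0.67 ± 0.28 (adjusted p = 0.166) at the other, so the probes do not share a sign and neither was called.

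The single probe of anxa1b gave 2367, 2012 and 1805 in beclomethasone at 24 hpf, against 939, 1229 and 1146 in DMSO. Later, at 72 hpf, it gave 3848, 4218 and 4103 in beclomethasone, against 3685, 5469 and 4809 in DMSO. The groups were apart at 24 hpf and overlapped at 72 hpf. The differences were 0.90 ± 0.16 (adjusted p = 0.00519) and -0.18 ± 0.16 (adjusted p = 0.646). The effect at 72 hpf minus that at 24 hpf was -1.08 ± 0.23 (adjusted p = 0.0235). This call was lost with the replicate block within each stage (adjusted p = 0.0656) and in the fit that blocks on slide (-1.36, adjusted p = 0.154). Whether the response of anxa1b differs from that of anxa1a was not tested.

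The kinase gene sgk1 is a target of both corticosteroid receptors, and in mammalian kidney its product keeps sodium channels at the cell surface. Its brightest probe gave 3744, 3671 and 3758 in beclomethasone at 24 hpf, against 2580, 2523 and 2413 in DMSO. At 72 hpf it gave 13383, 13417 and 14170 in beclomethasone, against 4893, 5463 and 5330 in DMSO. The groups did not overlap, and the rise at 24 hpf was 0.57 ± 0.06 (adjusted p = 5.28e-04). At 72 hpf the difference was 1.39 ± 0.06 (adjusted p = 2.75e-06). The effect was larger at 72 hpf by 0.81 ± 0.09 (adjusted p = 0.00206), and by 0.78 with slide as a block (adjusted p = 0.0981). Stage differences of the other 2 sgk1 probes, 0.51 ± 0.18 (adjusted p = 0.107) and 1.09 ± 0.79 (adjusted p = 0.414), were not called. The second probe, well above background on all but DMSO array 3 of 24 hpf, rose by 0.84 ± 0.13 and 1.35 ± 0.13. The third probe was not well above background on any DMSO array of 24 hpf. It gave 35.1, 36.9 and 31.7 in beclomethasone there, against 15.1, 14.6 and 86.8 in DMSO, and was called at neither stage (0.36 ± 0.56, adjusted p = 0.663, and 1.45 ± 0.56, adjusted p = 0.167). Without array 3, the source of the 86.8, the rise at 24 hpf was at least 1.46-fold (adjusted p = 2.05e-04), with 2 of the 3 beclomethasone arrays well above background, and the difference at 72 hpf was 1.45 ± 0.10 (adjusted p = 2.49e-05).

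The transcription factor gene zbtb16a, whose mammalian counterpart is known as PLZF, was the gene whose brightest probe did not rise at 24 hpf. That probe gave 52852, 56500 and 58683 in beclomethasone at 24 hpf, against 72395, 61862 and 62877 in DMSO. At 72 hpf it gave 13534, 13790 and 13573 in beclomethasone, against 7533, 7922 and 7549 in DMSO. Beclomethasone arrays were thus below DMSO arrays at 24 hpf and above them at 72 hpf. The differences were -0.23 ± 0.07 (adjusted p = 0.0563) and 0.83 ± 0.07 (adjusted p = 1.29e-04). The fall at 24 hpf was called with median centring (-0.30, adjusted p = 0.0187) and after normexp (-0.25, adjusted p = 0.0263). Without the DMSO array of 24 hpf that stands apart it was also called (-0.26, adjusted p = 0.0488). After quantile normalization it was not called (adjusted p = 0.0616). Nor was it with the replicate block within each stage (adjusted p = 0.130) or with only the arrays compared (adjusted p = 0.196). With slide as a block it was -0.31 and not called. The effect at 72 hpf minus that at 24 hpf was 1.06 ± 0.11 (adjusted p = 0.00134). A fit that blocks on slide gave 1.16 (adjusted p = 0.0538).

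The 3 probes of zbtb16a disagree at 24 hpf. The second gave 3097, 3191 and 2838 in beclomethasone, against 2070, 2803 and 2576 in DMSO, a difference of 0.30 ± 0.11 that was not called (adjusted p = 0.0749). The third gave 2454, 2523 and 2283 in beclomethasone, against 1523, 2011 and 1858 in DMSO, and rose by 0.44 ± 0.11 (adjusted p = 0.0179). The 2 dimmer probes therefore lie above DMSO on every array, and the brightest lies below it on every array. The rise of the third was not called with slide as a block, where it was 0.46. Nor was it in a limma fit on only the 24 hpf arrays (adjusted p = 0.0992). At 72 hpf the 3 probes gave 0.83, 0.70 and 0.79, and all rose. With slide as a block the 2 dimmer ones gave 0.65 and 0.68 there and were not called. The stage difference of the 2 dimmer probes, 0.40 ± 0.15 (adjusted p = 0.135) and 0.35 ± 0.15 (adjusted p = 0.174), was not called.

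**Figure D3:**
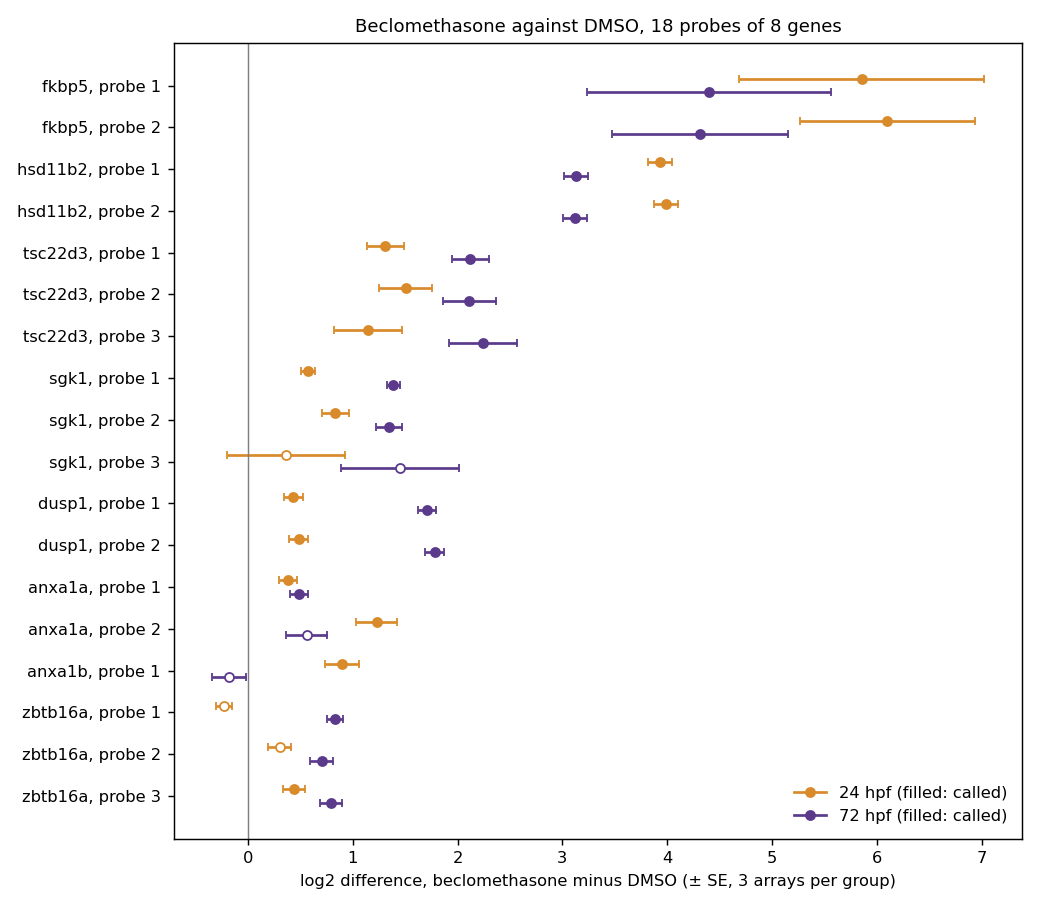
Log2 difference between beclomethasone and DMSO (± SE of the fit, 3 arrays per group) for each of the 18 probes, at 24 hpf in orange and at 72 hpf in purple, with probes of a gene numbered from the brightest. Filled points have an adjusted p below 0.05. The wide bars of fkbp5 and of the third sgk1 probe belong to probes that at least 2 of the 3 DMSO arrays of 24 hpf did not measure well above background.

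Of the 18 probes, 4 had a larger effect at 72 hpf (1 of sgk1, 2 of dusp1 and 1 of zbtb16a), 3 a smaller one (2 of hsd11b2 and the probe of anxa1b), and 11 were not called. Over all tested probes, 2.55% were called larger and 5.21% smaller, 7.77% in all. At the brightest probes, 3 genes had a larger and 2 a smaller effect, against 3.05% and 5.54% of named genes, 8.58% in all. Without DMSO array 3 of 24 hpf, 11 probes were called, among them the 2 of fkbp5 that were then at background in DMSO at 24 hpf, and with slide as a block 2, both of dusp1. Over all tested probes, leaving out that array took the calls from 2800 of 36058 to 5193 of 36226. By size of the log2 difference at 24 hpf, the brightest probes ran from fkbp5 and hsd11b2 through tsc22d3 (1.31), anxa1b (0.90), sgk1 (0.57), dusp1 (0.43) and anxa1a (0.38) to zbtb16a (-0.23). At 72 hpf the order was fkbp5, hsd11b2, tsc22d3 (2.12), dusp1 (1.71), sgk1 (1.39), zbtb16a (0.83), anxa1a (0.49) and anxa1b (-0.18). Neighbours in these orders were not tested against each other.

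Most of the 18 probes also differed between the stages, which lay mostly on different slides. Over all tested probes, 30.3% of all tested probes were higher at 72 than at 24 hpf in DMSO and 36.1% lower, 66.4% in all. In DMSO, 12 of the 18 probes were higher at 72 hpf, 5 were lower and 1 was not called. The arrays of 72 hpf lay above those of 24 hpf without overlap for 11 probes (29.3% of all tested) and below for 5 (36.4%). At the brightest probes 6 genes were higher and 2 lower, against 34.1% and 38.4% of named genes, 72.5% in all. The probes of hsd11b2 were higher by 3.06 ± 0.12 and 3.31 ± 0.11, and the brightest probes of tsc22d3, anxa1b and sgk1 by 2.22 ± 0.18, 2.07 ± 0.16 and 1.06 ± 0.06. The brightest probe of fkbp5 was higher by 3.03 ± 1.17 (adjusted p = 0.0422), and the groups overlapped. Without DMSO array 3 of 24 hpf it was at least 22.5-fold higher. The second fkbp5 probe was at least 2.22-fold higher (adjusted p = 0.00572), and at least 5.34-fold without that array. In a limma fit on only the DMSO arrays neither fkbp5 probe was called (adjusted p = 0.152 and 0.0507). Nor was either with slide as a block, where they were 2.69 and 2.94. The 5 probes that fell were those of dusp1 (-1.49 ± 0.09 and -1.37 ± 0.09) and zbtb16a (-3.10 ± 0.07, -2.47 ± 0.11 and -2.19 ± 0.11). The rise of anxa1a with age was 0.42 ± 0.09 at its brightest probe and 1.56 ± 0.20 at its other probe. With each array centred on its median these were 0.09 ± 0.10 (adjusted p = 0.422) and 1.24 ± 0.20 (adjusted p = 3.37e-04). That centring also ended the calls of the brightest fkbp5 probe (adjusted p = 0.0677) and of the third tsc22d3 probe (adjusted p = 0.0525).

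In beclomethasone, 11 probes were higher at 72 hpf, 3 were lower and 4 were not called, against 33% of all tested probes that were higher and 34.7% that were lower, 67.6% in all. The arrays of 72 hpf lay above those of 24 hpf without overlap for 13 probes (41.9% of all tested) and below for 4 (39.7%). At the brightest probes 5 genes were higher and 1 lower, against 35.7% and 37.5% of named genes, 73.2% in all. The age difference of tsc22d3 was 3.03 ± 0.18 and that of sgk1 1.87 ± 0.06 at the brightest probes. The falls of zbtb16a were -2.04 ± 0.07, -2.07 ± 0.11 and -1.84 ± 0.11. The 4 probes not called were those of fkbp5 (1.58 ± 1.17 and 1.52 ± 0.84) and dusp1 (-0.21 ± 0.09 with an adjusted p of 0.0554, and -0.07 ± 0.09 with one of 0.515). With DMSO array 3 of 24 hpf left out of the fit, the fkbp5 probes were called (adjusted p = 4.06e-05 and 2.49e-04). With median centring the dusp1 probes were called as lower at 72 hpf (-0.50, adjusted p = 2.73e-04, and -0.36, adjusted p = 0.00654).

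**Figure D4:**
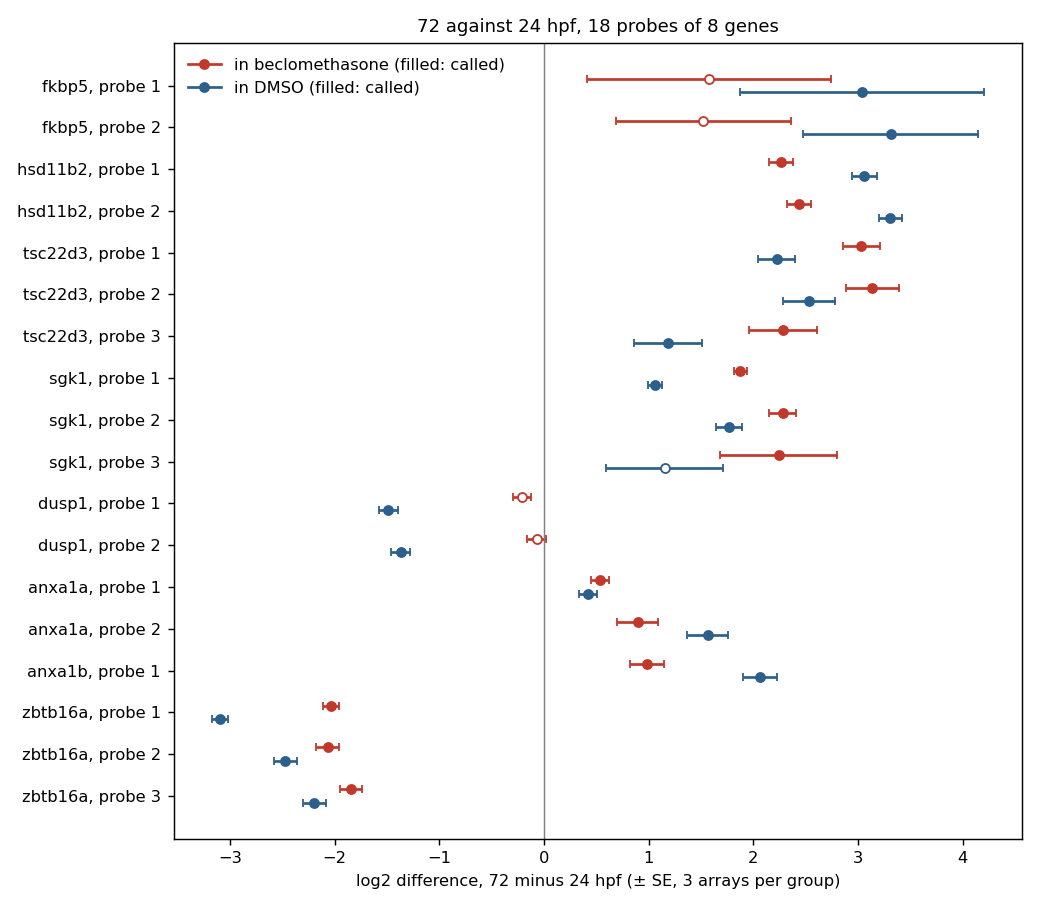
Log2 difference between 72 and 24 hpf (± SE of the fit, 3 arrays per group) for each of the 18 probes, in beclomethasone in red and in DMSO in blue. Filled points have an adjusted p below 0.05. Probes of dusp1 and zbtb16a lie left of 0, and those of the other 6 genes lie right of it, in both treatments.

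Markers of other tissues were read beside these genes. All 4 tested red blood cell genes rose at 24 hpf, with cahz, a carbonic anhydrase of red cells, at 1.04 ± 0.12 (adjusted p = 7.55e-04) and the embryonic globin gene hbbe3 at 0.80 ± 0.22 (adjusted p = 0.0311). These are brightest probes, and the other cahz probe gave 0.22. The summed scaled signal of the 4 red blood cell genes ran from 538501 to 589769 in beclomethasone, against 312156 to 361867 in DMSO. At 72 hpf none of the 4 was called, and the sums were 452972 to 506603 in beclomethasone, against 411098 to 561921 in DMSO. At 24 hpf, 2 of 5 muscle genes, 2 of 5 epidermis genes and 1 of 5 neural genes rose at their brightest probes. The epidermis gene krt4 fell at its brightest probe (-0.31), while its other probes ran from -0.09 to 1.23. The other muscle probes gave 2.64 (ckma), 0.22 to 2.39 (ckmb), 0.18 to 1.82 (actc1b), 0.16 to 1.55 (mylpfa) and 0.21 to 0.83 (tnnt3b). Those of the other epidermis genes gave 0.82 to 1.65 (krt8), 1.46 (cyt1), 0.69 (tp63) and -0.12 to 0.92 (krt5). At 72 hpf the other muscle probes gave 0.05 (ckma), 0.12 to 0.18 (ckmb), 0.04 to 0.10 (actc1b), 0.03 to 0.08 (mylpfa) and -0.18 to 0.0032 (tnnt3b). Probes of the same muscle gene thus differed more at 24 hpf than at 72 hpf. At 72 hpf the epidermis gene tp63 was the only one of these 3 lists that was called (0.84 ± 0.10). Of 7 genes of later organs such as exocrine pancreas, liver and photoreceptors, 1 was called at 24 hpf. At that stage 3 of the 7 were well above background on no beclomethasone array, and 3 on no DMSO array. The 3 dim in beclomethasone passed the filter only through their 72 hpf signal, so a missing call at 24 hpf says little about them. The called gene, prss59.1, read lower (-2.01 ± 0.59, adjusted p = 0.0373). It was well above background on 1 DMSO and 0 beclomethasone arrays, so the size of this fall is not known. At 72 hpf 0 were called. Of all named genes, 24.1% were called at 24 hpf and 12.3% at 72 hpf. Of 3 tested genes of the earlier stage, 1, hbbe3, rose at 24 hpf, and 0 were called at 72 hpf. The summed scaled signals of these 3 at 24 hpf were 166127 to 204842 in beclomethasone, against 92220 to 116235 in DMSO. The part of these tissues in the rises of the 8 genes was not tested.

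The receptor's own gene, nr3c1, gave 415, 455 and 478 in beclomethasone at 24 hpf, against 655, 550 and 624 in DMSO, a difference of -0.44 ± 0.09 (adjusted p = 0.00778) at its brightest probe, whereas its other 2 probes gave -0.04 and 0.02. At 72 hpf it was -0.22 ± 0.09 (adjusted p = 0.172). The mineralocorticoid receptor gene nr3c2 was near background at 24 hpf and was called at neither stage (adjusted p = 0.326 and 0.975). Of 16 tested genes of receptors, chaperones and coregulators, 1 rose, 8 fell and 7 were not called at 24 hpf, with a median of -0.29, against -0.08 over all named genes. At 72 hpf 3 rose, 1 fell and 12 were not called, with a median of -0.06, against -0.04 over all named genes. Of all named genes 12.4% fell at 24 hpf and 5.17% rose at 72 hpf.

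Within that list fkbp4, the immunophilin that competes with the fkbp5 product for the receptor complex, fell at both stages. It gave 16212, 15080 and 16100 in beclomethasone at 24 hpf, against 27377, 25373 and 23596 in DMSO, a difference of -0.69 ± 0.07 (adjusted p = 4.32e-04), and was -0.42 ± 0.07 (adjusted p = 0.00626) at 72 hpf. Of the Hsp90 genes, hsp90aa1.2 fell by 1.13 at 24 hpf at its brightest probe (SE 0.14, adjusted p = 0.00102), while its other probes ran from -0.43 to 0.19, and was not called at 72 hpf, and hsp90aa1.1 rose by 0.99 ± 0.20 (adjusted p = 0.00883) and 1.13 ± 0.20 (adjusted p = 0.00680). At 72 hpf ptges3a, which encodes the co-chaperone p23, rose by 1.15 ± 0.09 (adjusted p = 3.54e-05) and hspa8 by 0.31 ± 0.07.

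Of 28 other tested genes that glucocorticoids are known to raise, 12 rose, 0 fell and 16 were not called at 24 hpf (median 0.39), and 18 rose, 2 fell and 8 were not called at 72 hpf (median 1.23). Over all named genes 11.7% rose at 24 hpf and 5.17% at 72 hpf, with medians of -0.08 and -0.04. This list, too, was chosen with earlier results of these data known. The transcription factor gene klf9 gave 314, 340 and 355 in beclomethasone at 24 hpf, against 5.97, 5.66 and 78.9 in DMSO, where no array was well above background. This is a rise of at least 5.91-fold (adjusted p = 0.00518), and no bound without DMSO array 3 of 24 hpf is given. At 72 hpf its rise was 3.68 ± 0.82 (adjusted p = 0.0218). The growth brake ddit4 gave 9533, 9646 and 9173 in beclomethasone at 24 hpf, against 1702, 1671 and 2744 in DMSO (2.25 ± 0.40, adjusted p = 0.00505), and rose by 4.05 ± 0.40 (adjusted p = 2.32e-04) at 72 hpf. The cytokine brake socs3a rose by 2.17 ± 0.29 and 2.96 ± 0.29, and cebpd, a C/EBP transcription factor gene, by 1.94 ± 0.13 and 2.08 ± 0.13. The gene igfbp1b, of a binding protein of insulin-like growth factors, rose by 2.98 ± 0.42 at 72 hpf. At 24 hpf igfbp1b was not called (-0.03 ± 0.42). The clock gene per1a was called at neither stage (-0.42 ± 0.27, adjusted p = 0.290, and 0.65 ± 0.27, adjusted p = 0.211), and its other probe gave -1.22 and 1.58. The 2 genes that fell at 72 hpf, named after their values were seen, were trim63a (-0.89 ± 0.12) and cdkn1ca (-0.32 ± 0.08).

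Of 37 tested paralogues of the 8 genes, 11 rose, 1 fell (fkbp4) and 25 were not called at 24 hpf, and 7 rose, 3 fell and 27 were not called at 72 hpf, with medians of 0.12 and -0.01. Of all named genes 24.1% were called at 24 hpf and 12.3% at 72 hpf. The family member tsc22d2 rose by 1.55 ± 0.07 and 1.88 ± 0.07, while tsc22d1 was 0.02 ± 0.07 (adjusted p = 0.867) at 24 hpf, where its other probes reached 0.76, and rose by 0.27 ± 0.07 (adjusted p = 0.0472) at 72 hpf. The kinase genes sgk2b (1.24 ± 0.12 and 2.06 ± 0.12) and sgk3 (1.23 ± 0.09 and 1.01 ± 0.09) rose at both stages at their brightest probes, and the other 2 sgk3 probes gave -0.00 and 1.46 at 24 hpf. Among the annexins, anxa2a rose by 0.28 ± 0.08 (adjusted p = 0.0411) at 24 hpf and by 1.53 ± 0.08 at 72 hpf, and its other probe gave 1.33 and 1.61. A further copy of the annexin A1 gene, anxa1c, was called at neither stage (0.28 ± 0.10, adjusted p = 0.0619, and -0.05 ± 0.10, adjusted p = 0.892). The other anxa1c probe gave 0.80 and -0.13. The immunophilin gene fkbp10b rose by 0.73 ± 0.10 at 24 hpf. The 3 that fell at 72 hpf were fkbp4 and, named after their values were seen, fkbp7 (-0.28 ± 0.07) and dusp22b (-0.56 ± 0.12).

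Of 8 tested genes of steroid synthesis and turnover, srd5a2a, a steroid 5-alpha-reductase gene, rose by 2.96 ± 0.22 (adjusted p = 3.45e-05) at 72 hpf, and its other probes gave 2.99 and 3.02. At 24 hpf its brightest probe rose by 0.82 ± 0.22 (adjusted p = 0.0254), while the others gave -0.24 and -0.07. At 72 hpf it gave 10009, 9555 and 10069 in beclomethasone, against 1363, 1156 and 1303 in DMSO. The other 7 were not called at 24 hpf. At 72 hpf, cyp17a1, of androgen synthesis, fell by 0.88 (SE 0.15, adjusted p = 0.00627) and hsd11b1la by 0.53 (SE 0.08, adjusted p = 0.00312), and 5 were not called. Of 10 tested inflammation genes that glucocorticoids are known to hold down, 1 rose, 3 fell and 6 were not called at 24 hpf, and 2 rose, 1 fell and 7 were not called at 72 hpf, with medians of -0.27 and -0.02, where 24.1% and 12.3% of all named genes were called. The cytokine gene tnfb fell by 0.69 (SE 0.19, adjusted p = 0.0294) and 1.06 (SE 0.19, adjusted p = 0.00692), and nos2b by 1.61 (SE 0.24) and the brightest probe of irg1l by 0.59 (SE 0.13) at 24 hpf, where the other irg1l probe gave 0.11. The riser at both stages was rel, which encodes an NF-kB subunit, by 2.49 ± 0.17 and 1.06 ± 0.17, joined at 72 hpf by the prostaglandin synthase gene ptgs2b (0.68 ± 0.13).

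**Figure D5:**
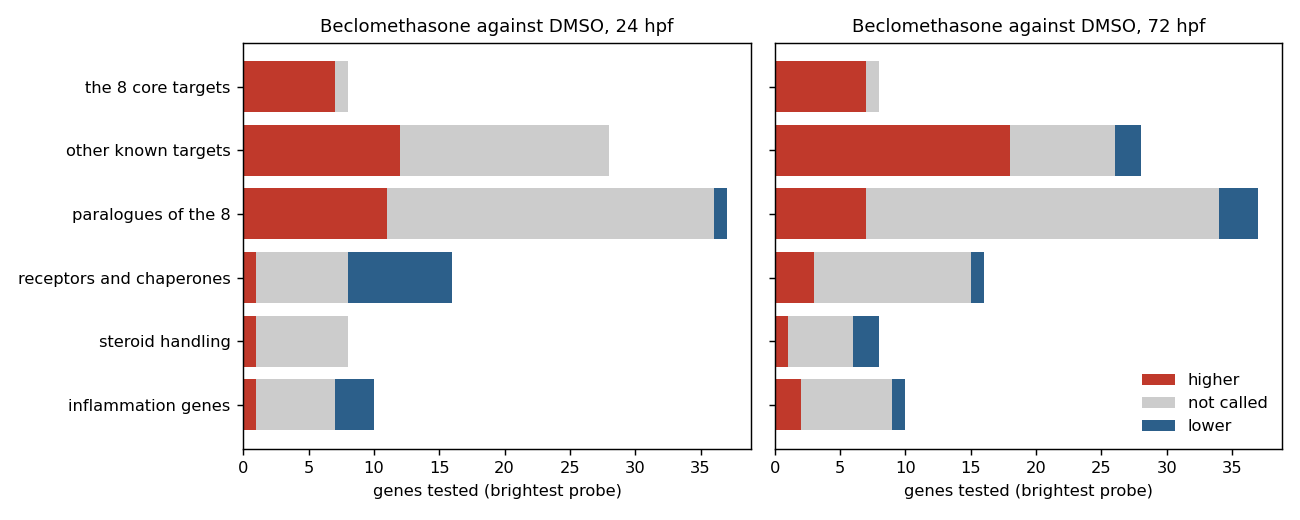
Number of tested genes (brightest probe of each) that were higher in beclomethasone (red), not called (grey) or lower (blue) at 24 and 72 hpf, for the 8 core targets and 5 lists around them. At both stages 7 of the 8 core targets were higher and 0 lower, and the list of receptors and chaperones has 8 lower genes at 24 hpf and 1 at 72 hpf.

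Over the 12 arrays, the genes most alike to each core target were found by Pearson correlation of log2 values among 11083 probes that were well above background on at least 6 arrays and had an SD of at least 0.5. The 12 values share stage and treatment groups and the dim reads of DMSO array 3 of 24 hpf, so the coefficients are a description. For fkbp5 they were klf9 (r = 0.986), anxa4 (0.981, at a probe other than its brightest) and ethe1 (0.962). For hsd11b2 they were ucp2 (0.997), rasd1 (0.996) and sult2st1 (0.992). Those most like tsc22d3 were socs3a (0.994), zyg11 (0.994) and tm7sf2 (0.992), and those most like sgk1 were slc2a12 (0.993), tsc22d3 itself (0.989) and edn1 (0.989). For dusp1 they were hif1al (0.978), lipg (0.978) and slc25a25a (0.971). The nearest to anxa1a were chac1 (0.980), dhrs13a.2 (0.972) and anxa2a (0.972, again not its brightest probe), and the nearest to anxa1b were gatm (0.993), dlst (0.992) and ubac1 (0.992) whose beclomethasone differences were 0.79, 0.82 and 0.69 at 24 hpf and -0.14, -0.18 and -0.20 at 72 hpf. For zbtb16a they were btg2 (0.996), nr2f1b (0.994) and arhgap46a (0.994).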

How the data were processed

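Whole AB zebrafish embryos were measured on 12 Agilent 1-colour arrays, 3 per group. Per the file headers, the deposited scanner files hold processed intensity values that the authors made with Agilent Feature Extraction 10.7.1.1. The authors' deposited table holds log2 values with medians of 7.37 to 7.38 in every column. The submitters' processing notes name Agilent Feature Extraction and limma. How that table was normalized is not given in the sources used here.

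Intensities were taken to log2 and each array's 75th percentile was subtracted. Control spots were left out and spots of 1 probe averaged. RefSeq accessions named 25069 of 26981 such probes. Probes well above background on all 3 arrays of at least 1 group (36058) were fitted with 4 group means in limma 3.58.1 (lmFit and eBayes, R 4.3.3). P-values were Benjamini-Hochberg adjusted over all of them, and probes under 0.05 are called. Every limma p here comes from that fit or a named alternative, and the script was tested on simulated data. The number of arrays limits the precision.

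A fold given as "at least" sets the mean of the brighter group over the lowest signal well above background. The members and all lists were chosen with earlier results of these data known. Text names every member probe, the 4 called genes with the largest difference per list and treatment comparison, a few receptor-related genes whether called or not, and the 3 most alike genes per member. Deviations from group means of same-numbered arrays correlated at 0.537, 0.506 and 0.506 at 72 hpf, so the numbers may pair those arrays. At 24 hpf they correlated at -0.09, 0.07 and -0.04, where no pairing was seen. The labels state no pairing, and the main fit uses none. Slide was read from the file headers. The array annotation and the RefSeq table are of different assemblies, so no coordinates are given. Promoter sequence was not analysed here.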

Additional observations from a re-analysis of the deposited data

Results flagged for a closer look

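The effect of beclomethasone differed between the stages, by the interaction test of the limma fit, at 7 of the 18 probes. Values are the log2 effect at 72 hpf minus that at 24 hpf. It was smaller at 72 hpf for hsd11b2, at -0.80 and -0.87 for its 2 probes, and for anxa1b, at -1.08. The effect was larger at 72 hpf for dusp1, at 1.27 and 1.30 for its 2 probes, for the brightest probe of sgk1, at 0.81, and for the brightest probe of zbtb16a, at 1.06. With slide as a block, the calls of dusp1 were the 2 that were still made. With the replicate number as a block within each stage, the second hsd11b2 probe (adjusted p = 0.0520) and anxa1b (adjusted p = 0.0656) were not called.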

How the results depend on the processing

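With 3 arrays per group, precision is limited, and dim probes rest on DMSO array 3 of 24 hpf. The treatment difference kept its sign in every alternative run, the deposited table with its own labels set aside, for 17 of 18 probes at 24 hpf (the third sgk1 probe turned) and 18 of 18 at 72 hpf. Of the 15 probes called at 24 hpf, slide as a block called 6 and a fit on only the arrays compared 8. Over all 36058 tested probes those fits called 1529 and 2062, against 7939 in the main fit. At 72 hpf, of 15, slide as a block called 8 and requiring signal well above background on all 12 arrays 8. Over all tested probes these called 928 of 36058 and 3334 of 16009, against 3335 of 36058 in the main fit. The all-array filter tested only the 10 probes well above background on all 12 arrays, so its 8 calls are of 10 probes and not of 18. The brightest probe per gene, which tests 8 probes, called 7 at each stage. Over all genes that setting called 4829 of 25166 at 24 hpf and 2578 at 72 hpf. The stage difference, with 7 calls, had 2 with slide blocked, and 11 when DMSO array 3 of 24 hpf was left out. In that last fit 5193 of 36226 tested probes were called, against 2800 of 36058 in the main fit. Between stages, the all-array filter called 10 in DMSO and 9 in beclomethasone, and the brightest probes 8 and 6, for which fewer probes were tested. Over all tested probes the all-array filter called 13069 and 12687 of 16009, and the brightest probes 16565 and 16988 of 25166. Leaving out 1 array gave 12 to 17 calls at 24 hpf, 14 to 16 at 72 hpf, 5 to 11 for the stage difference, 16 to 18 between stages in DMSO and 14 to 16 in beclomethasone. Over all tested probes (36065 to 36572), it gave 3869 to 10225 calls at 24 hpf and 1891 to 5186 at 72 hpf. For the stage difference it gave 1015 to 5193, and between stages 22244 to 27418 in DMSO and 22187 to 27569 in beclomethasone. Where no construction shows it, the cause was not tested.

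With the deposited table's own labels, the 24 hpf differences were -4.89 (fkbp5), -3.58 (hsd11b2), -1.17 (tsc22d3), -0.52 (sgk1), -0.51 (dusp1), -0.47 (anxa1a), -0.82 (anxa1b) and 0.28 (zbtb16a). At 72 hpf they were -4.40, -3.11, -2.14, -1.37, -1.71, -0.47, 0.19 and -0.82 in the same order. The stage differences that turned were 0.49 (fkbp5), 0.47 (hsd11b2), -0.98 (tsc22d3), -0.85 (sgk1), -1.20 (dusp1), 1.01 (anxa1b) and -1.11 (zbtb16a). With columns joined to the matching arrays, the stage difference of anxa1a was -0.00119, and after normexp that of fkbp5 was 0.30. Normexp used the median signal, chosen after seeing the data, since the planned run on mean signals was not run.

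With the replicate block over all arrays, 1 of 40 brightest-probe results lost its call. The replicate block within each stage, added after seeing the data, changed no call of the 18 probes beyond the 4 given above with their p-values.

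Over all probes, the split of higher and lower calls at 24 hpf was 4403 and 3536, against 3545 and 5601 with median centring, 4114 and 9992 after normexp, 1059 and 470 with slide as a block, 1386 and 676 with only the arrays compared, 2805 and 3721 with the all-array filter, and 2888 and 5110 in the deposited table as labelled (5110 and 2888 with its columns joined). At 72 hpf it was 1634 and 1701, against 605 and 323 with slide as a block, 1502 and 2288 with median centring and 1179 and 2155 with the all-array filter. For the stage difference it was 921 and 1879, against 1356 and 1669 with median centring, 5878 and 2869 after normexp 44 and 19 with slide as a block, and 2636 and 1015 in the deposited table as labelled.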
